A study of Homo sapiens with 32 samples.

Results

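The apolipoprotein transcripts APOE, APOC1, APOC2, APOD, APOL1, APOL2, APOL3, APOL4 and APOL6 were followed across Ewing sarcoma cells that differ in cohesin or Polycomb. They are 9 of the 28278 gene symbols in the count tables, and all 9 were found in the knockdown table by Ensembl gene. They were chosen by name, with measured values in view: APOE was picked because it was high in cells without Polycomb repressive complex 2 (PRC2) and low without STAG2, and APOL6 because it was low without STAG2. The values of those contrasts are therefore given as a description, with no test.

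A673 is a Ewing sarcoma cell line driven by the EWS::FLI1 fusion. Controls were the parental A673 line (WT) and the WT clone, which carries a doxycycline-inducible Cas9 (iCas9) at the AAVS1 locus. All A673 knockout (KO) clones were derived from that clone and also carry iCas9. Experiment 1 held 3 control libraries (2 of the WT clone and 1 parental) and 2 STAG2 KO libraries. Experiment 2 held 3 controls of the same make-up and 3 clones each of STAG2 KO, EZH2 KO and SUZ12 KO. Experiment 3 held 1 WT clone library, 1 parental library and 3 STAG1 KO libraries. Experiment 4 compared 3 mock transfected A673 samples (siC) with 3 transfected with siRNA against STAG2 (siSTAG2). A4573 cells lack STAG2, and 1 library was compared with 1 of a clone with STAG2 restored by knock-in (KI); SK-N-MC cells have STAG2, and 1 library was compared with 1 STAG2 KO library. The labels give iCas9 for all 4 A4573 and SK-N-MC libraries, controls included, and for none of the knockdown samples. The labels give each A673 KO library as a separate clone, whereas the KI arm of A4573 and the KO arm of SK-N-MC are 1 library each, so clone and genotype cannot be told apart there. Nothing states that same-clone libraries came from separate cultures, so p-values measure the spread between these libraries, which may be technical.

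Apolipoproteins coat lipid particles and carry cholesterol and other lipids between and within cells. APOE is the ligand through which many particles reach lipoprotein receptors on cells. APOC1 restrains particle uptake and remodelling, and APOC2 is the cofactor of lipoprotein lipase (LPL). APOD is a lipocalin that binds small hydrophobic molecules. The APOL proteins act mostly inside cells, except APOL1, which is secreted and lyses trypanosomes, and several of their genes are induced by interferon and TNF. STAG2 and STAG1 are alternative subunits of cohesin, and EZH2 and SUZ12 are subunits of PRC2, which deposits the repressive mark H3K27me3.

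On GRCh38, APOE lies on the plus strand of chromosome 19 at 44905791 to 44909393, and APOC1 follows it on the same strand at 44914247 to 44919349, 4854 bases further on. APOC2 lies at 44946035 to 44949565 in the same cluster. APOD lies on chromosome 3 at 195568705 to 195584033. The APOL genes are on chromosome 22. APOL3 (36140329 to 36166177), APOL4 (36189124 to 36204840), APOL2 (36226209 to 36239954) and APOL1 (36253071 to 36267530) stand side by side, and APOL6 lies apart at 35648446 to 35668404.

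The promoters of APOE and APOC1 are shown because these 2 neighbours changed by different amounts in the PRC2 KO cells. That difference between the genes was not tested. Each runs from 250 bases before to 50 bases after a transcript start in RefSeq (GRCh38.p14), for APOE the most upstream of 3 starts listed, 5′ to 3′ on the plus strand. Capitals mark GGAA, the core that ETS factors such as FLI1 bind, or its reverse complement TTCC. The windows are chr19:44905546-44905845 for APOE and chr19:44914422-44914721 for APOC1.
APOE: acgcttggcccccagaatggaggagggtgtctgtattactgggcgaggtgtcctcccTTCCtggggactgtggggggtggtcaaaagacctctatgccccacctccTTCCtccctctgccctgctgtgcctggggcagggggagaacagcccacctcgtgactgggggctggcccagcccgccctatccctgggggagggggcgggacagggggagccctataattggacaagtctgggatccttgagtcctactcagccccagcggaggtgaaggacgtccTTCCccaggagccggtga
APOC1: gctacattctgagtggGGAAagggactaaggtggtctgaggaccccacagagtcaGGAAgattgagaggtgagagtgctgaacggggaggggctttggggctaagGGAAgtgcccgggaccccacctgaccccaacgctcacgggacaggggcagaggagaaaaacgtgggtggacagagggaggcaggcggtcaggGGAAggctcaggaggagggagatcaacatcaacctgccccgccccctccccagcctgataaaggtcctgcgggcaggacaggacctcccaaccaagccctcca
The APOE window holds 3 such cores and the APOC1 window 4. Windows at the other APOE starts, not shown, hold 3 and 7. Both strands were searched. Of 35116 promoters of the same length, 95.5% held at least 1 GGAA, with a median of 3 matches, so neither window shown stood apart. The doubled GGAAGGAA was in neither window and in 3.67% of all promoters. Sequences were matched for 3 of the 9 members.

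Library totals were 15734628 to 20663679 counts in the 22 A673 libraries of experiments 1 to 3, and 29322507 to 32261248 in the 4 isogenic libraries. The targeted transcripts were checked first. STAG2 was at 42.8 to 184 normalized CPM (counts scaled to a common library size) in the 5 STAG2 KO libraries and at 257 to 353 in their 6 controls, and the knockdown left 159 ± 18.6 normalized reads (SD, n = 3) of 1050 ± 51.4 in siC. EZH2 was lower in EZH2 KO (log2 fold change −1.98 ± 0.20 SE, adjusted p = 0.000137) and SUZ12 in SUZ12 KO (−1.90 ± 0.23, adjusted p = 0.000299; edgeR). STAG1 was at 61.5, 15.1 and 32.8 CPM in the libraries labelled STAG1 KO n1, n5 and n7, against 67.8 and 57.3 in the controls, so n1 was not below both controls. Of 7 Ewing sarcoma markers, 6 were detected in each of the 26 count libraries and CD99 was at 0 in all of them. CD99 had enough reads to be tested in the A673 knockdown, so its 0 is not read as absence from the cells. Markers of hepatocytes, a main source of apolipoproteins, summed to 0.702 to 5.36 CPM. Macrophage markers summed to 2.76 to 11.6 CPM in A673 libraries, with TYROBP at 0. The highest of them was CD68, at 1.76 to 10.1 CPM, so the sum rests largely on 1 gene.

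Levels between genes were compared per length, as RPKM (counts scaled to library size and exon length), over the 8 control libraries of experiments 1 to 3. APOL2 was at 8.13 ± 1.52 RPKM (SD, n = 8) and APOE at 6.24 ± 4.34, and their ranges overlapped (5.89 to 9.74 against 2.05 to 14.7). APOL6 followed at 1.87 ± 1.15 and APOL4 at 1.17 ± 0.628, again with overlapping ranges. APOC1 was at 0.573 ± 0.201 RPKM. APOD (0.102 ± 0.0653), APOL1 (0.0978 ± 0.0869) and APOL3 (0.0362 ± 0.0403) were each below the range of APOC1, which began at 0.352. APOC2 had 0 counts in all 26 libraries, 0 of 537917079 counts summed, which allows up to 0.00558 CPM for counting error only. It was also listed at 0 in all 6 knockdown libraries. APOC2 shares exons with the readthrough gene APOC4-APOC2, also at 0, and 41.5% of its 86-base stretches occur there. APOC1 shares 14.6% of its 86-base stretches with APOC1P1 and an unnamed gene, so its counts are uncertain to that extent; no 86-base stretch was shared between members.

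**Figure D1:**
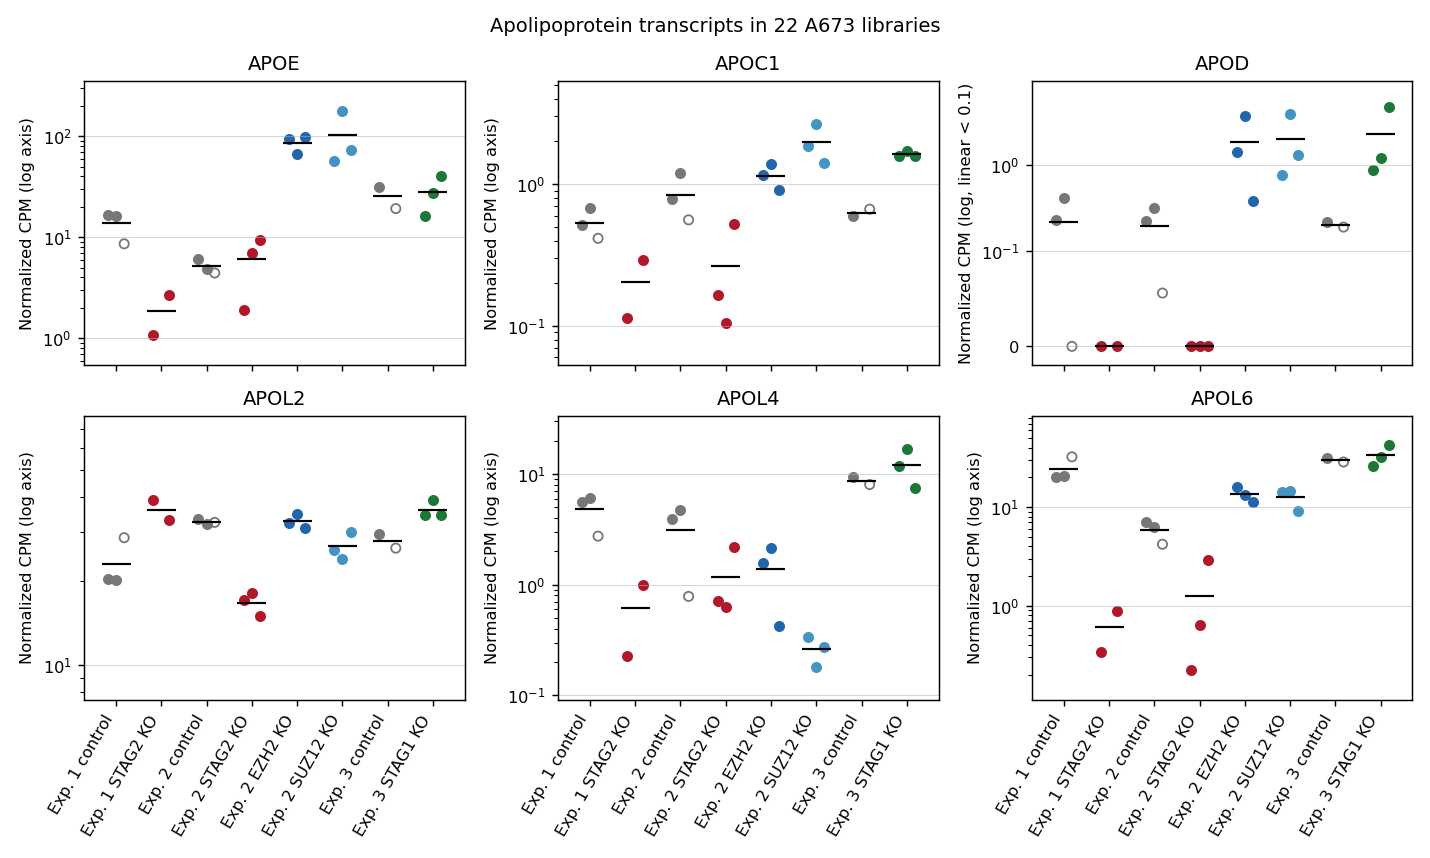
Normalized CPM (y axis; log scale, for APOD linear below 0.1) of 6 members in each of 22 A673 libraries, by arm (x axis); open circles are the parental line, filled circles clones, and bars the mean. APOE stands highest in EZH2 KO and SUZ12 KO (57.1 to 176 CPM), and APOL6 is lowest in STAG2 KO (0.221 to 2.94 CPM).

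In STAG2 KO cells APOL6 fell furthest among the 5 members tested, and it was lower in both experiments. APOL4 and APOC1 were also at lower mean levels in both experiments. APOE was lower in experiment 1 but not in experiment 2, and APOL2 went in opposite directions. Of the 9 members, 5 passed the filter on low counts when both experiments were fitted together with edgeR, and 1 of these, APOL6, was called. Of all 13574 genes tested, 12.4% were called and 5.76% were called lower. Because this contrast chose the members, nothing is read from that count, which was 0 without STAG2 KO library 5 of experiment 1, 3 without clone 5 of experiment 2 and 2 without the parental library of experiment 2. In bulk RNA, fewer cells with a transcript and less of it per cell cannot be told apart.

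APOL6 was at 20.3, 20.6 and 32.2 CPM in the 3 controls of experiment 1 (2 WT clone, then parental) and at 0.875 and 0.339 CPM in its STAG2 KO libraries. In experiment 2 the controls were at 6.98, 6.34 and 4.20 CPM and STAG2 KO clones 3, 5 and 2 at 0.631, 2.94 and 0.221 CPM. The groups did not overlap in either experiment, and clone 5 was the highest of the KO libraries. Here and below, the share of all genes whose groups did not overlap was worked out for STAG1 KO only. The log2 fold change was −3.38 ± 0.80 (SE) over both experiments, −5.34 ± 0.47 in experiment 1 and −2.14 ± 0.84 in experiment 2. On leaving out 1 library the value over both ranged from −4.60, without clone 5 of experiment 2, to −2.83, without STAG2 KO library 24 of experiment 1.

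APOE was at 16.7, 16.1 and 8.60 CPM in the controls of experiment 1 and at 2.68 and 1.07 CPM in STAG2 KO, with no overlap. In experiment 2 its controls were at 6.15, 4.83 and 4.42 CPM, and clones 3, 5 and 2 at 6.996, 9.45 and 1.88 CPM. There 2 of 3 KO clones were above every control and the other below every control. The log2 fold change was −2.89 ± 0.52 in experiment 1, 0.30 ± 0.56 in experiment 2 and −0.96 ± 0.71 over both. The low level for which APOE was chosen is thus absent from 2 of the 5 STAG2 KO libraries.

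APOL4 was at 5.63, 6.03 and 2.75 CPM in the controls of experiment 1 and at 0.992 and 0.226 in STAG2 KO. In experiment 2 it was at 3.91, 4.71 and 0.783 CPM in the controls and at 0.631, 2.20 and 0.719 in clones 3, 5 and 2, so the groups overlapped at the parental line. Its log2 fold change was −2.02 ± 0.65 over both experiments. APOC1 had 8 to 19 counts in each of the 6 controls and 2 to 10 in the 5 STAG2 KO libraries, with a log2 fold change of −1.51 ± 0.46. Its CPM did not overlap between groups within either experiment. In experiment 2 the parental line and clone 5 both had 10 counts (0.559 and 0.525 CPM), so that gap came from library scaling only. APOD had 0 counts in all 5 STAG2 KO libraries, which allows up to 0.0320 CPM over their summed total, and 22 counts summed over the 6 controls.

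APOL2 was at 20.3, 20.1 and 28.6 CPM in the controls of experiment 1 and higher, at 33.0 and 38.9, in STAG2 KO. In experiment 2 it was at 33.3, 31.9 and 32.4 CPM in the controls and lower, at 18.1, 14.96 and 17.1, in clones 3, 5 and 2. The groups did not overlap in either experiment, and the log2 fold changes were 0.62 ± 0.20 and −0.92 ± 0.15. APOL1 had 1 to 7 counts and APOL3 0 to 5 in these 11 libraries, and neither was tested.

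The STAG2 KO effect of experiment 2 minus that of experiment 1, from an interaction term, is given as a description, since it is made from the contrasts that chose the members. On the log2 scale it was −1.53 ± 0.24 (SE) for APOL2, 3.21 ± 0.85 for APOE, 3.21 ± 1.10 for APOL6, 1.66 ± 1.16 for APOL4 and −0.17 ± 1.02 for APOC1. Over all 13574 genes edgeR called 0 (0%), although 4150 had an unadjusted p under 0.05, and DESeq2 called 2236.

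Control cells alone differed between experiments, a comparison chosen after the values were seen. In controls APOE was 2.62-fold lower in experiment 2 than in experiment 1 (log2 difference −1.39 ± 0.17, adjusted p = 0.000181) and 5.26-fold higher in experiment 3 than in experiment 2 (2.40 ± 0.18, adjusted p = 1.17e-05). APOL6 was 4.18-fold lower in experiment 2 than in experiment 1 (−2.06 ± 0.24, adjusted p = 0.000146) and 5.11-fold higher in experiment 3 than in experiment 2 (2.35 ± 0.25, adjusted p = 5.78e-05). In the controls of experiment 3 APOE was at 31.6 and 19.2 CPM and APOL6 at 31.04 and 28.6. APOL4 was higher in experiment 3 than in experiment 2 (1.89 ± 0.38, adjusted p = 0.00196). APOL2 was higher in experiment 2 than in experiment 1 (0.50 ± 0.14, adjusted p = 0.0120), a call lost without either WT clone library of experiment 1 or without the first of experiment 2 (adjusted p = 0.0533 to 0.0623). APOE was also higher in experiment 3 than in experiment 1 (1.01 ± 0.17, adjusted p = 0.00830). Such differences were common: edgeR called 54.7% of 14167 genes between experiments 2 and 1, 14.6% between 3 and 1 and 62.2% between 3 and 2, against 3, 1 and 3 of the 5 members tested. Differences of the members between experiments therefore cannot be told apart from those of the experiments as a whole.

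STAG2 KO in experiment 1 alone called 25.9% of genes and 3 of the 4 members tested (APOE, APOL4 and APOL6 lower). In experiment 2 alone it called 3.69% of genes and 1 of the 5 members tested (APOL2 lower). STAG2 loss chose the members, so nothing is read from these counts either. Fibroblast markers summed to 486 to 899 CPM in the 5 STAG2 KO libraries and to 1162 to 2479 in the 6 controls, and of the 7, 4 were called lower (COL1A1, COL1A2, DCN and LUM) and 1 higher (THY1). Ewing sarcoma markers summed to 1889 to 2759 CPM in those KO libraries and to 2513 to 3492 in the controls, and of 6 tested 2 were called lower (CCND1 and PRKCB) and 2 higher (NR0B1 and BCL11B). The part of either in the result was not tested.

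**Figure D2:**
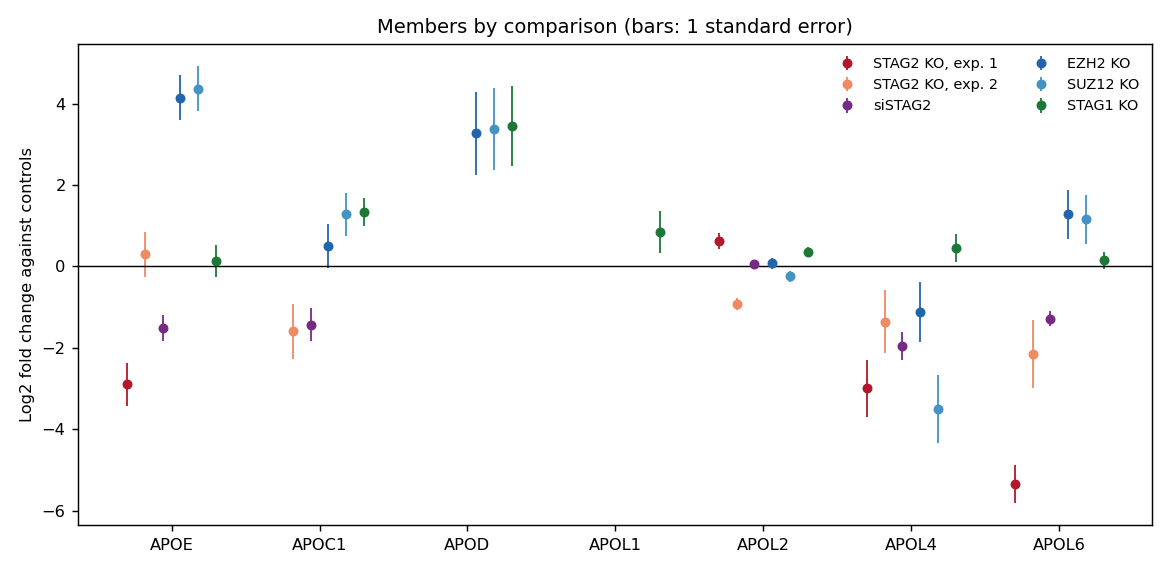
Log2 fold change against controls (y axis; points with 1 standard error) of each member that passed the filter in 6 comparisons (x axis: gene). APOE is lower in experiment 1 and the knockdown and above 4 in both PRC2 knockouts, while APOL6 is lower in all 3 comparisons of STAG2 loss.

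In cells without EZH2 or SUZ12, APOE was far above the controls of the same experiment, and APOD had more counts than in any of those controls. APOL6 was above every control in all 6 clones, and APOL4 was lowest in SUZ12 KO. With edgeR 1 of 6 members tested was called in EZH2 KO, where 15.7% of 15130 genes were called and 12% were called higher. In SUZ12 KO 3 of 6 were called, APOE and APOD higher and APOL4 lower, where 20.6% of genes were called, 14.7% higher and 5.87% lower. APOE chose this contrast, so nothing is read from the counts. Without clone 3 of EZH2 KO the first was 2, and without clone 2 of SUZ12 KO the second was 1.

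APOE was at 93.7, 67.1 and 98.5 CPM in EZH2 KO clones 1, 2 and 3, and at 57.1, 176 and 73.5 CPM in SUZ12 KO clones 1, 2 and 3. All 6 were above the highest control (6.15 CPM). The fold was 17.6 in EZH2 KO (log2 4.14 ± 0.55) and 20.7 in SUZ12 KO (log2 4.37 ± 0.56).

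APOD had 30, 68 and 8 counts in EZH2 KO clones 1, 2 and 3 and 16, 88 and 24 in SUZ12 KO clones 1, 2 and 3, against 4, 5 and 1 in the controls. The groups did not overlap, and the log2 fold changes were 3.27 ± 1.01 and 3.38 ± 1.01, or 2.24 without clone 2 of EZH2 KO and 2.42 without clone 2 of SUZ12 KO. APOL6 was at 16.1, 13.3 and 11.3 CPM in EZH2 KO and at 14.2, 14.4 and 9.11 in SUZ12 KO, all above its controls, with log2 fold changes of 1.28 ± 0.60 and 1.16 ± 0.60.

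APOL4 was at 1.58, 2.15 and 0.427 CPM in EZH2 KO and at 0.340, 0.181 and 0.271 in SUZ12 KO. The SUZ12 KO values were below all 3 controls, and the log2 fold changes were −1.11 ± 0.73 and −3.49 ± 0.84. APOC1, the neighbour of APOE, had 24, 25 and 19 counts in EZH2 KO and 38, 59 and 26 in SUZ12 KO, against 14, 19 and 10. Its log2 fold changes were 0.50 ± 0.53 and 1.28 ± 0.53. Its CPM overlapped with the controls in EZH2 KO and was above every control in SUZ12 KO. APOL2 moved little, by 0.08 ± 0.14 and −0.24 ± 0.14. APOL1 had 0 to 7 counts and APOL3 0 to 4 in the 6 PRC2 KO libraries.

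EZH2 KO and SUZ12 KO were compared directly, a contrast that chose no member. With edgeR 0 of 6 members were called (adjusted p = 0.999 for each), and 1 of 15130 genes (0.00661%), with 629 genes at an unadjusted p under 0.05; DESeq2 called 0 members too. APOE differed by 0.23 ± 0.47 on the log2 scale (SUZ12 KO minus EZH2 KO), which became −0.42 without clone 2 of SUZ12 KO. The largest differences of a member were −2.38 ± 0.83 for APOL4 and 0.77 ± 0.52 for APOC1. These errors do not show that the knockouts act alike. Macrophage markers summed to 9.15 to 10.3 CPM in EZH2 KO, 4.37 to 6.34 in SUZ12 KO and 3.07 to 5.82 in the controls, with TYROBP at 0. Of the 8 listed, 3 passed the filter in each knockout and 1 was called higher. Their part was not tested. Fibroblast markers summed to 1051 to 1268 CPM in EZH2 KO and 785 to 869 in SUZ12 KO, against 1162 to 2479. In each knockout, of 7 tested, COL1A2 and COL3A1 were called lower and PDGFRA higher against the controls; their part was not tested.

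Genes within 100000 bases were read for the same clones. TOMM40, the mitochondrial import pore gene that ends 2102 bases before APOE, differed by −0.46 ± 0.31 in EZH2 KO (adjusted p = 0.349) and −0.36 ± 0.31 in SUZ12 KO (adjusted p = 0.441). NECTIN2, a cell adhesion gene 16568 bases away, differed by 0.06 ± 0.17 and 0.02 ± 0.17, and CLPTM1 by −0.28 ± 0.18 and −0.33 ± 0.18. BCAM, an adhesion receptor 84370 bases away, differed by 2.28 ± 0.79 in EZH2 KO (adjusted p = 0.0734) and rose by 2.95 ± 0.81 in SUZ12 KO (adjusted p = 0.0227). RELB, an NF-κB subunit, differed by 1.24 ± 0.44 (adjusted p = 0.0797) and 0.66 ± 0.44. Next to APOL6, MB, which encodes myoglobin, differed by 2.02 ± 0.76 and 2.21 ± 0.76, RASD2 by 1.40 ± 0.62 and 1.72 ± 0.62, and RBFOX2 by −0.23 ± 0.15 and −0.24 ± 0.15, none called. Next to APOD, PPP1R2 differed by 0.29 ± 0.12 and 0.11 ± 0.12. APOC4, APOC4-APOC2 and APOL5 were not tested.

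**Figure D3:**
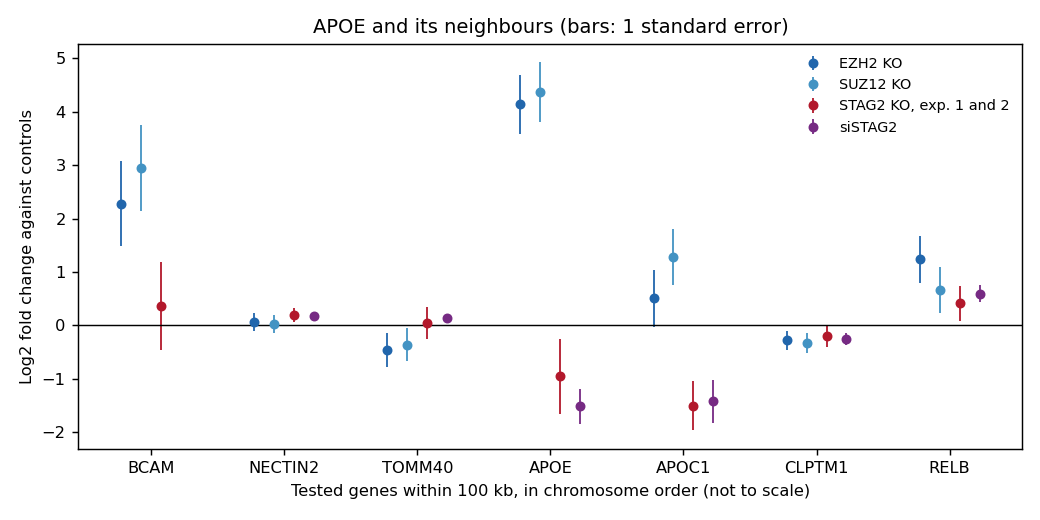
Log2 fold change against controls (y axis; points with 1 standard error) for APOE and the tested genes within 100000 bases, in chromosome order and not to scale (x axis), in 4 comparisons. APOE stands above 4 in both PRC2 knockouts, while NECTIN2, TOMM40 and CLPTM1 lie between −0.46 and 0.19. BCAM, RELB and APOC1 have positive values in both PRC2 knockouts, smaller than those of APOE.

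In STAG1 KO cells 0 of 7 members tested were called with edgeR (5.27% of 14373 genes were). Of all tested genes 3578 had an unadjusted p under 0.05, and DESeq2 called 1 member, APOD. APOE was at 16.4, 27.5 and 40.8 CPM in libraries n1, n5 and n7, which overlapped the controls (31.6 and 19.2), and the log2 difference was 0.14 ± 0.40 (adjusted p = 0.861), or −0.23 without n7. APOL6 was at 26.3, 32.3 and 42.0 CPM, also overlapping, at 0.15 ± 0.21 (adjusted p = 0.691).

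APOD had 14, 22 and 94 counts against 4 and 4, which is 3.46 ± 0.98 higher on the log2 scale (adjusted p = 0.0978 with edgeR and 0.00660 with DESeq2). APOC1 had 25, 31 and 31 counts against 11 and 14, at 1.33 ± 0.34 (adjusted p = 0.0761). All 3 STAG1 KO libraries were above both controls for APOD, APOC1 and APOL2, as they were for 23.6% of the genes tested, and none of the 3 passed the threshold with edgeR. APOL2 differed by 0.35 ± 0.12 (adjusted p = 0.137), APOL1 by 0.84 ± 0.52 (adjusted p = 0.359) and APOL4 by 0.45 ± 0.34 (adjusted p = 0.467). Fibroblast markers summed to 3437 to 3728 CPM in STAG1 KO and to 2000 to 2464 in the controls. Of 7 tested, COL1A1 was called higher and LUM lower, and the median log2 difference was −0.30. Macrophage markers summed to 7.50 to 11.6 against 3.57 to 4.53, and of the 8 listed 2 were tested and 0 called. The part of either was not tested. Beside APOE, CLPTM1 differed by 0.48 (adjusted p = 0.0456), but without either control library 0 genes were called in all. The library labelled n1, with STAG1 near the control level, had APOE and APOL6 at the lowest of the 3. Library n5, with the lowest STAG1, was between the others for both genes, so their levels did not follow STAG1.

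The WT clone was compared with the parental line over experiments 1 to 3, since all KO clones come from it. APOE was 1.60-fold higher in the WT clone (log2 0.68 ± 0.15, adjusted p = 0.0460, edgeR), higher in each of the 3 experiments. It was the 1 of 5 members tested that was called, where 2.72% of 14167 genes were. The call was lost on leaving out any 1 of 7 of the 8 libraries (adjusted p = 0.0622 to 0.153), all but the parental library of experiment 2, while the difference stayed at 0.55 to 0.83. APOL4 differed by 1.11 ± 0.32 (adjusted p = 0.122) and was called by DESeq2 (adjusted p = 0.00743). APOC1 differed by 0.43 ± 0.34, APOL2 by −0.13 ± 0.12 and APOL6 by −0.06 ± 0.20.

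With STAG2 knocked down rather than edited, APOE, APOC1, APOL4 and APOL6 were lower and APOL2 was not. The minimum mean of 10 normalized reads was met by 5 members, and 4 of them were called lower by limma, where 20.5% of 12060 genes were called and 11% were called lower. For APOE and APOL6, which were chosen partly for this, the values are a description, and nothing is read from the count of 4. APOE was at 33.4, 32.5 and 31.3 normalized reads in siC replicates 1, 2 and 3 and at 15.5, 5.56 and 13.5 in siSTAG2, with a log2 fold change of −1.52 ± 0.32 (on log2 of the value plus 1). APOL6 was at 101, 99.4 and 100.01 normalized reads in siC and at 39.9, 52.8 and 31.9 in siSTAG2, at −1.28 ± 0.18. Neither overlapped between groups, for which the share of all genes was not worked out.

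APOL4 fell by 1.94 ± 0.35 on the same scale (adjusted p = 0.000172), from 26.7, 26.6 and 25.0025 normalized reads in siC to 6.66, 8.34 and 3.86 in siSTAG2. APOC1 fell by 1.43 ± 0.41 (adjusted p = 0.0129), from 21.9, 18.7 and 28.1 to 12.2, 2.78 and 12.6. All 3 siSTAG2 values were below all 3 siC values for both genes, again with no share of all genes worked out. The APOC1 call was lost without siC replicate 3 (adjusted p = 0.0760) and without siSTAG2 replicate 2 (−0.82, adjusted p = 0.101). APOL2 was at 145 ± 13.2 normalized reads in siC and 151 ± 18.2 in siSTAG2 (SD, n = 3), a difference of 0.05 ± 0.12 (adjusted p = 0.826). Beside APOE, RELB rose by 0.59 (adjusted p = 0.00896). Of 6 fibroblast markers tested in the knockdown 5 were called lower and 1, THY1, higher; their part was not tested. APOL1 had 0 to 5 recovered reads per library, APOD 0 to 1 and APOL3 0 to 2.

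**Figure D4:**
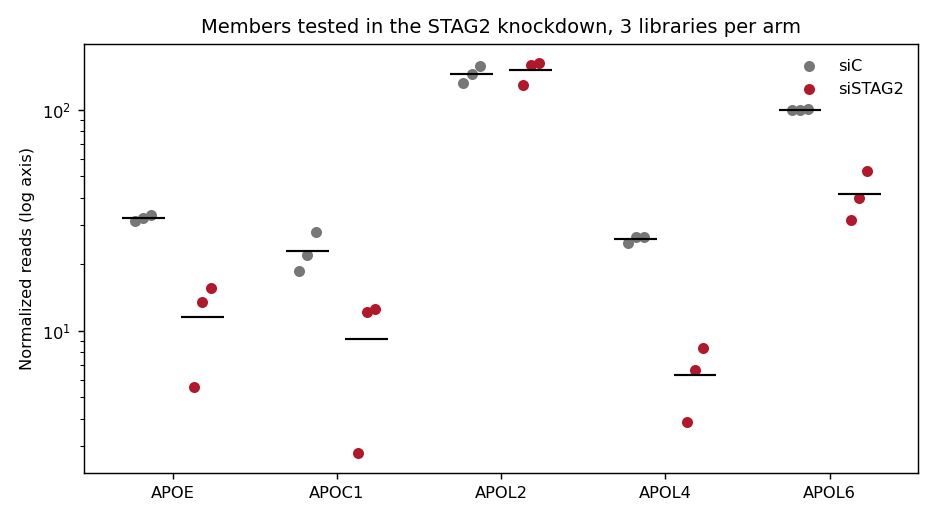
Normalized reads (y axis, log scale) in 3 siC and 3 siSTAG2 libraries for the 5 members tested (x axis); points are libraries and bars means. The groups are apart for APOE, APOC1, APOL4 and APOL6 and overlap for APOL2. The share of all genes whose groups are apart was not worked out.

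The isogenic pairs have 1 library per arm, so there is no test, and the intervals are exact 95% intervals that cover counting error only. For APOE and APOL6, chosen for low levels without STAG2, the values of both pairs are a description. In A4573, STAG2 was at 33.5 CPM without and 87.2 with the knock-in. APOE was at 4.20 CPM without STAG2 and 18.3 with it, a ratio of 0.229 (interval 0.188 to 0.278), and APOL6 at 7.002 and 28.5, a ratio of 0.246 (0.211 to 0.286). APOL2 was at 14.4 and 23.4 CPM, a ratio of 0.615 (0.545 to 0.693), and APOC1 at 8.89 and 7.76, a ratio of 1.15 (0.961 to 1.37). Of the 16124 genes whose counts in both libraries summed to 10 or more, 14.5% were more than 2-fold lower without STAG2 and 7.45% more than 2-fold higher. APOE and APOL6 were among the lower, and APOL1, with 14 counts against 3, was 4.76-fold higher (1.33 to 25.8).

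In SK-N-MC, STAG2 was at 186 CPM in KO and 294 in WT. APOL6 was at 6.69 CPM in KO and 18.7 in WT, a ratio of 0.358 (0.304 to 0.421). APOE was at 36.4 and 38.3 CPM, a ratio of 0.948 (0.874 to 1.03) that does not exclude 1. APOL2 was at 28.4 and 23.8 CPM, a ratio of 1.19 (1.08 to 1.32). APOC1 had 1 count against 19, a ratio of 0.0571 (0.00137 to 0.359), and APOL1 9 against 32, a ratio of 0.305 (0.128 to 0.654). By the same minimum 16413 genes were read in this pair, and 11.3% were more than 2-fold lower in KO and 10.3% higher, and APOL6, APOC1 and APOL1 were among the lower. Macrophage markers summed to 79.0 CPM in WT and 91.4 in KO here, and fibroblast markers to 745 and 211; their part in these levels was not tested. APOL4, APOL3 and APOD had at most 41 counts in any isogenic library, and their intervals of the ratio included 1 or could not be given.

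**Figure D5:**
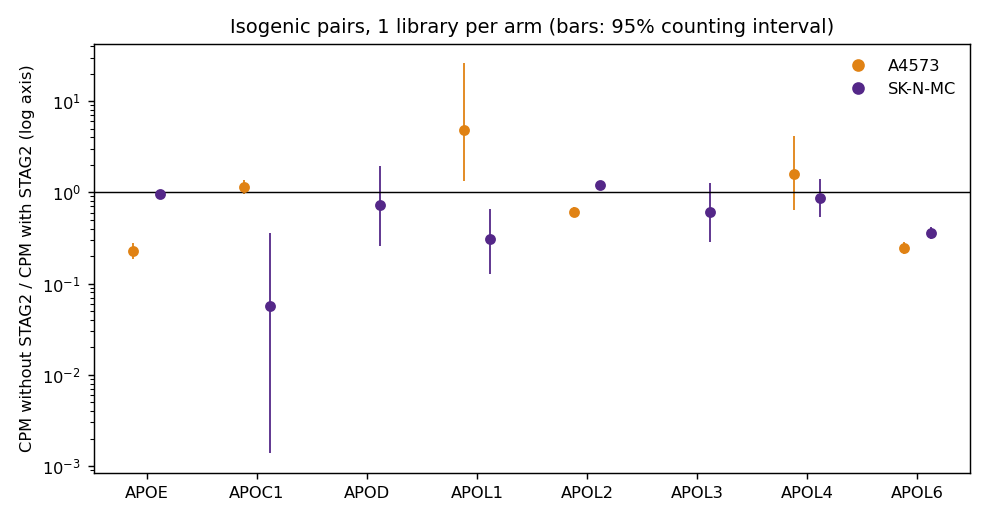
Ratio of CPM without to with STAG2 (y axis, log scale; the line marks equality) for each member with counts in both arms (x axis), with exact 95% counting intervals; 1 library per arm. APOL6 is below 0.5 in both pairs, and APOE in A4573 only.

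APOL6 was thus lower without STAG2 in both A673 experiments, in the knockdown and in both isogenic pairs. APOE was lower in experiment 1, the knockdown and A4573, near a ratio of 1 in SK-N-MC and not lower in experiment 2. Both genes were chosen for low levels without STAG2, so this list is a description and not a replication. The controls of experiments 1 and 2 enter the pooled STAG2 comparison, and those of experiment 2 enter the PRC2 comparisons as well, so these are not independent. APOL6 values in the control libraries ranged over 4.20 to 32.2 CPM, and those of APOE over 4.42 to 31.6.

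Over the 22 A673 libraries, with each experiment centred on its controls, the genes whose log2 CPM was most like APOE by Pearson's r were FOXO4 (0.981), G0S2 (0.972), SH2D2A (0.968), ATP2A3 (0.959) and SULF1 (0.957). Those most like APOL6 were GSDMD (0.965), CECR2 (0.964), ADRA1A (0.954), OAS1 (0.952) and CPXM1 (0.951). These libraries share experiments and clones, 11039 genes were ranked, and by Spearman's rho 0 of the 5 were shared for either gene. Between APOE and APOL6 themselves r was 0.76. The libraries include the STAG2 KO and PRC2 KO arms by which these genes were chosen, so nothing is read from that value.

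The other genes of lipid transport were read as lists. Beside their counts, edgeR called 6.67% of all genes tested higher and 5.76% lower in STAG2 KO, 12% and 3.69% in EZH2 KO, 14.7% and 5.87% in SUZ12 KO and 2.77% and 2.5% in STAG1 KO, and limma called 9.54% and 11% in the knockdown. Of 16 receptor genes, 13 were tested in STAG2 KO and 1 was lower, LRPAP1, which chaperones the receptors (−0.55 ± 0.14, adjusted p = 0.0279); the median was −0.16 against 0.04 for all genes. In EZH2 KO 4 of 14 were higher and 1 lower, and in SUZ12 KO 3 and 1 of 14. SORL1, a sorting receptor, rose by 1.93 ± 0.42 and 1.66 ± 0.42 (adjusted p = 0.00995 and 0.0157), the APOE receptor gene LRP8 by 0.72 ± 0.18 and 0.69 ± 0.18, and SCARB1, the HDL receptor, fell by 1.04 ± 0.19 and 1.10 ± 0.19. In the knockdown 3 of 10 were lower, among them LRP1, an endocytic receptor (−0.59 ± 0.20, adjusted p = 0.0356).

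Of 19 genes of lipid loading and remodelling, 11 were tested in STAG2 KO and 1, PLTP, which moves phospholipid between particles, was lower (−1.24 ± 0.21, adjusted p = 0.00368). PLTP was also lower in the knockdown (−0.70 ± 0.09, adjusted p = 9.85e-07), where 4 of 9 were. LPL, the lipase that APOC2 activates, rose by 5.73 ± 0.56 in EZH2 KO (adjusted p = 0.000105) and 6.61 ± 0.57 in SUZ12 KO (adjusted p = 3.79e-05), where 2 and 3 of 14 were higher. In SUZ12 KO 1 was lower, SOAT1, which esterifies cholesterol (−0.51 ± 0.15, adjusted p = 0.0357). ABCA1, which loads lipid onto APOE, was the second in EZH2 KO (3.86 ± 0.96, adjusted p = 0.0190) and was named after its value was seen. Of 13 nuclear receptors and SREBPs, 2 of 10 were lower in STAG2 KO, PPARD (−0.79 ± 0.19, adjusted p = 0.0223) and SREBF1 (−0.63 ± 0.16, adjusted p = 0.0227). In both PRC2 knockouts 2 of 11 were higher and 1 lower, and PPARA rose by 2.98 ± 0.92 and 3.35 ± 0.93.

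Of 30 genes of the interferon and TNF response, 27 were tested in STAG2 KO, 2 were higher and 5 lower, with a median of −0.42 against 0.04 for all genes. OAS1 (−4.59 ± 0.94, adjusted p = 0.00917) and OAS3 (−3.55 ± 0.73, adjusted p = 0.00917), sensors of double-stranded RNA, and IRF2 (−1.18 ± 0.26, adjusted p = 0.0140) were lower. In the knockdown 5 of 20 were lower and 3 higher, with OAS3 at −0.75 ± 0.10 and IRF2 at −0.66 ± 0.16. In EZH2 KO 3 of 29 and in SUZ12 KO 4 of 29 were higher, GBP2 by 3.98 ± 0.91 and 4.18 ± 0.92. In STAG1 KO 1 of 29 was higher and 1 lower, OAS1 (−1.51 ± 0.27, adjusted p = 0.0386), and without either control library 0 genes were called. Of the 16 other apolipoprotein and related genes, 1 of 5 tested was lower in STAG2 KO, APOLD1 (−1.35 ± 0.37, adjusted p = 0.0357). CLU was lower in SUZ12 KO (−1.78 ± 0.36) and in the knockdown (−0.59 ± 0.07). In EZH2 KO 1 of 6 and in SUZ12 KO 1 of 6 was higher, in both APOH, a phospholipid-binding plasma protein named after its value was seen (2.41 ± 0.46 and 2.60 ± 0.46).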

How the data were processed

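RNA was measured in 32 libraries: 22 of A673 clones, 6 of the knockdown and 4 isogenic. According to the methods and the submitters' processing notes, the authors sequenced poly(A)-primed cDNA without strand information as 86-base reads. Alignment to hg38 used TopHat2 (2.0.0), built on Bowtie (release 0.12.7) with SAMtools (release 0.1.16), with 2 mismatches and 5 multi-hits allowed; the counting program is not given in the sources used here. The deposited values are counts per gene symbol for all but the knockdown. For the knockdown the authors deposited a signal, gene counts divided by 1 factor per library; 100% of its values gave whole reads, 6852340 to 8184632 per library. No column of values was left out (0 unused).

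The quasi-likelihood test of edgeR 4.0.16 under R 4.3.3, after TMM scaling and filterByExpr, was applied to counts, and limma 3.58.1 to the knockdown on log2(value + 1) for genes with a mean of at least 10. STAG2 KO was fitted over experiments 1 and 2 with experiment as a term, the PRC2 knockouts over the 12 libraries of experiment 2, and controls over experiments 1 to 3. A call means p under 0.05 after Benjamini-Hochberg adjustment. Isogenic pairs were compared as CPM, also on a log2 scale (prior count 2), with no test. DESeq2 1.42.0 and the alternatives below were also run, and the fits were tested on simulated data. Members and lists were chosen with earlier results of these data known. Named genes are the members, up to 3 called genes per list and comparison with the largest change at 5 CPM or more (50 reads in the knockdown), measured neighbours within 100000 bases, the 5 genes most like APOE and APOL6, and the targeted genes.

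The 2 WT clone libraries of experiment 1 differed little (mean chi-square per gene 1.31, against 8.82 or more for other same-group pairs) and were kept as 2. Which clone each STAG2 KO library of experiment 1 and each STAG1 KO library is was not given by the labels, and the groups were used. Some genes of the lists are not reported here.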

Additional observations from a re-analysis of the deposited data

Results flagged for a closer look

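APOL1 and APOL2 moved in opposite directions without STAG2 in the A4573 and SK-N-MC pairs. The log2 ratio of A4573 minus that of SK-N-MC was 3.23 for APOL1 and −0.95 for APOL2. The difference was not tested, since each arm is 1 library, and APOL1 rests on 3 to 32 counts. For the members, no WT clone or STAG2 KO library was an extreme value of its group of 5, the groups for which that was tested. Each group mixed libraries of different experiments, without centring. Differences between experiments widen such a group, so an extreme library could be missed. Over all genes, clone 5 of STAG2 KO in experiment 2 differed from clones 3 and 2 by a mean chi-square per gene of 105 and 131, against 24.02 between those 2, and without it 4048 genes were called in STAG2 KO rather than 1687.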

How the results depend on the processing

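Among the members, edgeR called 1 in STAG2 KO, against 2 with DESeq2, with no experiment term or with the WT clone as the only control, 3 in experiment 1 alone, and 0 to 3 on leaving out 1 library. In EZH2 KO the 1 call became 2 with DESeq2, with no filter on low counts or with only the compared libraries, and was 1 to 2 on leaving out 1 library. In SUZ12 KO the 3 calls became 5 with only the compared libraries and were 1 to 3 on leaving out 1 library. With the library number as a replicate block, 4 members were called in EZH2 KO and 5 in SUZ12 KO. Those fits held only the WT clone libraries of experiment 2 and clones 1 and 2 of the knockout, so more than the block differs. The block gave 0 calls between the knockouts and 4 in the knockdown. Same-numbered libraries did not all deviate together (r −0.15, 0.39 and 0.34 for EZH2 and SUZ12 KO, 0.03, 0.04 and 0.004 for siC and siSTAG2), so the numbers do not pair those groups. Pairing of WT clone with KO libraries was not checked. DESeq2 called 1 member in STAG1 KO, 2 between WT clone and parental, 3 in the test between experiments and 2 between controls of experiments 3 and 1. WT clone against parental gave 2 with no filter, 0 with no experiment term and 0 to 1 on leaving out 1 library; the test between experiments gave 0 to 3, and controls of experiment 3 against 1 gave 1 to 3. In the knockdown a mean of at least 50 left 1 call, since fewer members were tested. No gene was shared between the Pearson and Spearman lists (0). Adding up both WT clone libraries of experiment 1 as a single sample left 1 call in STAG2 KO. In the isogenic pairs 6 values of members stayed past 2-fold. The fit of that sum and the fits of controls between experiments were chosen after seeing the data.

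On leaving out 1 library, log2 differences that were not called changed sign: SUZ12 against EZH2 KO for APOE (−0.42 to 0.51), APOD (−0.84 to 1.14) and APOL6 (−0.24 to 0.072); STAG1 KO for APOE (−0.23 to 0.53) and APOL6 (−0.046 to 0.31); WT clone against parental for APOL2 (−0.24 to 0.081) and APOL6 (−0.32 to 0.35); the knockdown for APOL2 (−0.018 to 0.15); the test between experiments for APOC1 (−1.14 to 0.60); and controls for APOC1, experiment 3 against 1 (−0.052 to 0.80) and against 2 (−0.67 to 0.18). The cause was not tested.

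Without single libraries the number of genes called ranged from 1053 to 4048 in STAG2 KO, 1169 to 1760 in EZH2 KO, 1874 to 3238 in SUZ12 KO, 0 to 1440 in the test between experiments, 558 to 2697 between controls of experiments 3 and 1 (2065 with all), 0 to 1310 in STAG1 KO and 98 to 953 between WT clone and parental. Over all genes, DESeq2 called 2616 in STAG2 KO (edgeR 1687), 1935 in STAG1 KO (757), 631 in WT clone against parental (385), 22 between SUZ12 and EZH2 KO (1) and 2236 in the test between experiments (0). STAG2 KO gave 3663 in experiment 1 alone and 494 in experiment 2 alone, EZH2 KO 1441 with the WT clone as the only control, WT clone against parental 741 with no filter and 5 with no experiment term, and SUZ12 against EZH2 KO 5 with no filter and 0 with only the compared libraries. On recovered reads of the knockdown edgeR called 2503 genes (limma 2476). The replicate block was fitted on the WT clone libraries of experiment 2 and clones 1 and 2 only. It called 3951 in EZH2 KO (2377 in the main fit) and 6286 in SUZ12 KO (3112). Members with few counts (APOC1, APOD, APOL1 and APOL3) are limited by depth.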
